A study of Rattus norvegicus with 14 samples.

Results

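The genes described here are 8 antiviral interferon-stimulated genes, Usp18, Isg15, Mx1, Mx2, Ifit2, Slfn4, Stat2 and Irf7, out of 14497 genes measured in the foreskin of newborn rats. They were chosen by their high log2 values in 1 litter of the same data, flutamide replicate 1, and are ranked by their excess there. Their values in that litter are therefore given as a description, and nothing is read from the p-values of the comparison that includes it. Each of the 8 genes had 1 probe set on the array that was annotated with its symbol alone, and all 8 were measured. Pups came from Sprague Dawley dams gavaged daily from gestational day 16 to gestational day 20, either with 5 mg/kg/day flutamide, an antiandrogen drug, or with corn oil, its vehicle. Foreskins were collected on postnatal day 5, and RNA from 2 foreskins of 1 litter was pooled for each Affymetrix Gene 1.0 ST array, giving 7 flutamide litters and 7 corn oil litters. Pooling leaves the spread between littermates unmeasured, and the sources used here do not describe the health of the animals.

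Interferons are secreted proteins that warn cells of infection. Type I interferons bind a receptor on nearly all cells, and the receptor's kinases phosphorylate STAT2, which acts with IRF9 in a complex that binds the interferon-stimulated response element in front of target genes. The targets include proteins that block viral replication, modifiers of other proteins, transcription factors that raise further interferon, and inhibitors that end the response. In skin, keratinocytes, fibroblasts and resident leukocytes can all respond.

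The core of the response element was searched as GAAA, any 2 bases and GAAA again, and GAAACT, which many such elements hold, was searched beside it. Promoter sequences from RefSeq (GRCr8 build, 250 bases before to 50 bases after the annotated start) were found for 4 of the 8 genes, and they are printed because a shared binding element is what the 8 genes are known for. Letters in capitals match the core or GAAACT on either strand, and the 2 motifs can overlap, since a core whose middle bases are CT holds GAAACT. Each gene's sequence is shown 5′ to 3′ on the gene's own strand. The Mx1 window is chr11:50294557-50294856 on the minus strand, Slfn4 is chr10:68491970-68492269 on the plus strand, Irf7 is chr1:205799974-205800273 on the minus strand and Stat2 is chr7:1286840-1287139 on the plus strand.
Mx1: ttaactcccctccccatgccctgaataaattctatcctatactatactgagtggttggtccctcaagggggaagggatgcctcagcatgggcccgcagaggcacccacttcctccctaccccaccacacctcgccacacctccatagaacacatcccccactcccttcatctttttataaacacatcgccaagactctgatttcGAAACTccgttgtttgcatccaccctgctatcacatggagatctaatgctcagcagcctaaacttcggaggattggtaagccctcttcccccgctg
Slfn4: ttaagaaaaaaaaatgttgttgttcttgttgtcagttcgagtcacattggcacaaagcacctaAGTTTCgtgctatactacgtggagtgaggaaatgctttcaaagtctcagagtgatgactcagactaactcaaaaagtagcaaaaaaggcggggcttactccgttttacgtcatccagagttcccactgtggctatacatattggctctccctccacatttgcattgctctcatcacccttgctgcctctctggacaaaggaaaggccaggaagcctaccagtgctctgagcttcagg
Irf7: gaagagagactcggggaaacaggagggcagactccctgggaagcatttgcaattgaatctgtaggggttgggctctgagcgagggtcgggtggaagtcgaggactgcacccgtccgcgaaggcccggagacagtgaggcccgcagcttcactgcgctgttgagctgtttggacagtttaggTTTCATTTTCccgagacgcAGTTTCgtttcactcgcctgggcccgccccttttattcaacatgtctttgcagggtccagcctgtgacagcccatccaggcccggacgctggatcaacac
Stat2: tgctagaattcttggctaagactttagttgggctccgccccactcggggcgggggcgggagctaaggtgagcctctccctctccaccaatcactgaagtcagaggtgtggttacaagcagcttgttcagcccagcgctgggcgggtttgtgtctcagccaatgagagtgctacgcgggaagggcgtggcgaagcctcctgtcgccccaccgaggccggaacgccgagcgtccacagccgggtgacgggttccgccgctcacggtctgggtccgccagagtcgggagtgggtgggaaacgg
Irf7 held the core with its first base 69 bases upstream of the start and GAAACT 50 bases upstream. Mx1 held GAAACT 46 bases upstream and Slfn4 held it 187 bases upstream. The Stat2 window held neither set of letters, which says only that they are not in this window. Of all 33469 promoters of the same length, 3.92% held the core and 16.6% held GAAACT.

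Stretches of 60 bases are printed for 4 further interferon-responsive genes that are described below with the 8, because each holds the full core. They are Ifit3 (chr1:241527257-241527316, plus strand), Oasl2 (chr12:47383302-47383361, minus strand), Ifi44l (chr2:243328639-243328698, plus strand) and Cxcl10 (chr14:15988816-15988875, plus strand).
Ifit3: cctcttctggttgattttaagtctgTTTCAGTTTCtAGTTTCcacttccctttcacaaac
Oasl2: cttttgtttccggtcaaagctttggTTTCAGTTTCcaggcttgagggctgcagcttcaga
Ifi44l: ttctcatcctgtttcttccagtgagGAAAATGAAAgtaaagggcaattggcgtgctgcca
Cxcl10: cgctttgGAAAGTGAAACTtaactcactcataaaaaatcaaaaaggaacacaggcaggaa
The core began 44, 151, 59 and 243 bases upstream of the start of Ifit3, Oasl2, Ifi44l and Cxcl10. Among 31 other antiviral genes with a promoter in the table, 21 held the core (67.7%), as did 5 of 10 genes of the interferon gamma response and 7 of 9 genes of class I antigen presentation. It was held by 2 of 9 genes of nucleic acid sensing (22.2%), 1 of 15 receptor and signalling genes (6.67%), 2 of 5 interferon genes and 0 of 11 NF-kB inflammation genes.

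Flutamide replicate 1 did not stand apart from the other litters in the arrays' general properties. Its median value was 5.89 on the log2 scale and the other 13 litters ran from 5.88 to 5.92. The SD of its values was 1.55, between 1.48 and 1.60 in the others, and its median correlation with the other arrays was 0.989, between 0.988 and 0.991 in the others. Markers of the main cells of skin varied little between litters. The mean log2 value of 6 keratinocyte markers ran from 9.67 to 9.86 over all 14 litters, and that of 6 fibroblast markers from 9.21 to 9.41.

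Values are RMA values on the log2 scale, so a difference of 1 is a 2-fold change. Levels of different genes come from different probes and are not compared. In tissue RNA, more cells that express a gene and more RNA per cell cannot be told apart.

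Among the enzymes and modifiers, Usp18 had the larger excess and Isg15 the smaller. Usp18 encodes the protease that removes ISG15 from proteins and also dampens signalling at the type I interferon receptor. Its value was 5.87 in flutamide replicate 1. The other 6 flutamide litters ran from 2.49 to 3.60 with a median of 3.14, against 2.96 to 3.70 with a median of 3.49 in the 7 corn oil litters (probe set 10858370). The litter was 2.73 above the median of the other flutamide litters, a 6.64-fold level, and 2.17 above the next highest of all litters. Isg15, the ubiquitin-like protein that USP18 removes, had 6.46 in flutamide replicate 1. The others ran from 5.37 to 5.73 with a median of 5.49 in flutamide litters, against 5.32 to 5.89 with a median of 5.60 in corn oil litters (probe set 10882317). The excess of 0.97 corresponds to 1.96-fold.

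The direct antiviral effectors were also high in flutamide replicate 1. Mx1 encodes a dynamin-like GTPase that acts in the nucleus of rat cells against influenza virus. Its value was 5.23 in flutamide replicate 1, while the other flutamide litters ran from 2.76 to 3.55 with a median of 3.23, against 3.10 to 3.78 with a median of 3.58 in corn oil litters (probe set 10753425). Mx2, its cytoplasmic relative in the rat, had 6.38 in that litter. The other flutamide litters ran from 4.46 to 5.15 with a median of 4.74, against 4.72 to 4.93 with a median of 4.76 in corn oil litters (probe set 10750524). In that litter Mx1 stood 2.01 and Mx2 1.64 above the other flutamide litters' median, 4.02-fold and 3.12-fold levels. Both lay above every other litter of either group.

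Ifit2 encodes a protein with tetratricopeptide repeats that binds RNA and restrains translation. It had 7.33 in flutamide replicate 1, while the other flutamide litters ran from 5.06 to 5.92 with a median of 5.70, against 5.68 to 6.10 with a median of 5.92 in corn oil litters (probe set 10714900). Slfn4, a member of the Schlafen family that interferon induces in mouse myeloid cells, had 5.93. The other flutamide litters ran from 3.47 to 4.40 with a median of 4.06, against 4.09 to 4.29 with a median of 4.18 in corn oil litters (probe set 10736802). The excess in the litter was 1.63 for Ifit2 (3.10-fold) and 1.87 for Slfn4 (3.66-fold). For neither gene did any other litter come within 1 log2 unit of it.

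The transcription factors had the smallest excess. Stat2, a subunit of the complex that binds the response element, had 6.67 in flutamide replicate 1. The other flutamide litters ran from 5.88 to 6.17 with a median of 6.04, against 5.90 to 6.27 with a median of 6.13 in corn oil litters (probe set 10893067). Irf7, which drives interferon alpha genes, had 5.26, while the other flutamide litters ran from 4.67 to 5.15 with a median of 4.93, against 4.72 to 5.10 with a median of 5.05 in corn oil litters (probe set 10726758). Flutamide replicate 1 was the highest litter for both, but its excess was 0.63 for Stat2 (1.54-fold) and 0.33 for Irf7 (1.26-fold). For Irf7 it lay only 0.11 above the next litter.

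**Figure D1:**
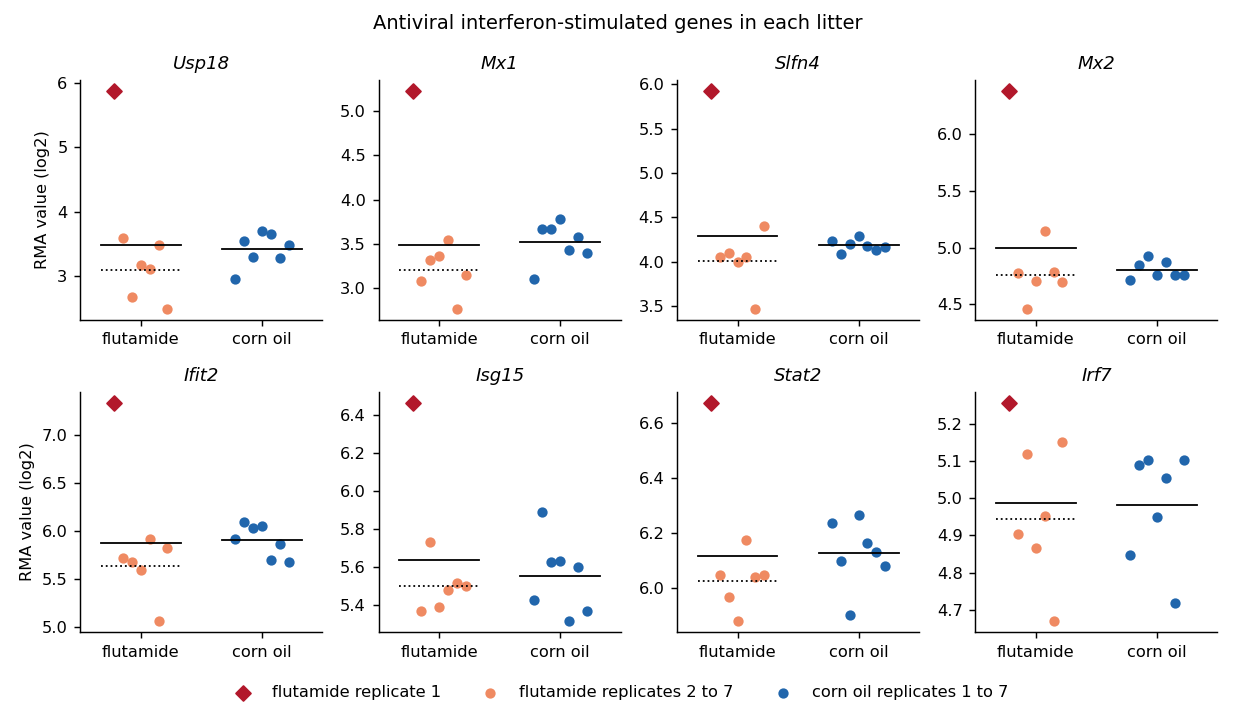
RMA value (log2) of the 8 genes in each litter, flutamide left and corn oil right, ordered by the excess in flutamide replicate 1 (diamond). Solid lines are group means and dotted lines the mean of flutamide replicates 2 to 7. The diamond is the highest of 14 litters in all 8 panels, by 2.17 for Usp18 and by 0.11 for Irf7.

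Ranked by this excess, the order was Usp18, Mx1, Slfn4, Mx2, Ifit2, Isg15, Stat2 and Irf7. Among all 14497 genes these were places 2, 5, 6, 9, 10, 26, 74 and 467. The median excess of the 8 genes was 1.64, against -0.01 over all genes. Flutamide replicate 1 was the highest of the 14 litters for 8 of 8 genes, where it was the highest for 6.04% of all genes. The excess was above 0 for 8 of 8, where 48.2% of all genes had such a value, and over 1 log2 unit for 5 of the 8, where 0.172% of all genes passed that mark. These counts restate how the 8 genes were chosen.

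The litter carried more such genes than any other. In flutamide replicate 1, 25 genes (0.172% of all genes) lay over 1 log2 unit above the median of the rest of the group. Of them 15 were among the 104 measured genes of the 8 and of 6 further interferon lists. Of these 15, 5 belonged to the 8, whose height in this litter was fixed by their choice. In the other 13 litters the count of genes over that mark ran from 0 to 9, and none of those genes was on these lists. The median deviation of the 8 genes from the rest of the own group was between -0.19 and 0.14 in those 13 litters.

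**Figure D2:**
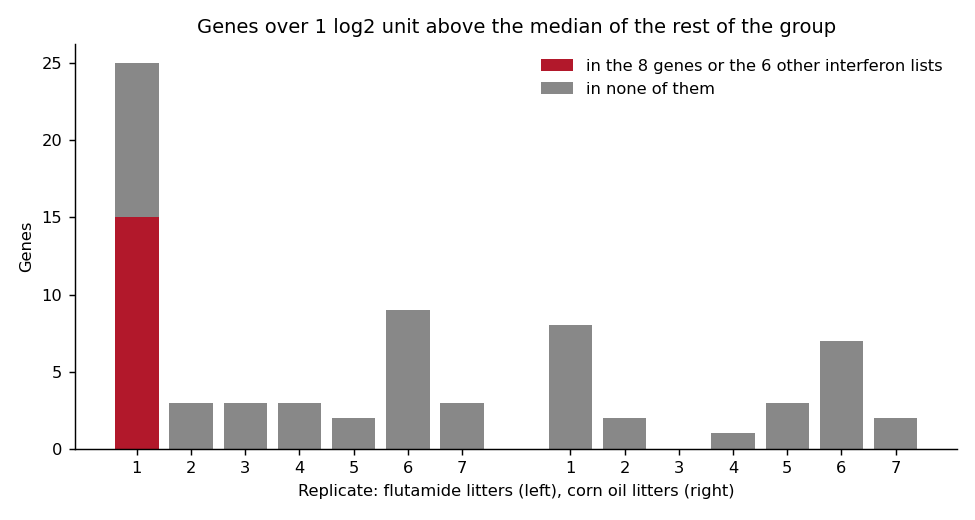
Number of genes (vertical axis) lying over 1 log2 unit above the median of the rest of the group, for each flutamide litter (left) and corn oil litter (right). Flutamide replicate 1 has 25, of which 15 are in interferon lists, and the other litters have 0 to 9, none in these lists. Of the 15, 5 belong to the 8 genes, which were chosen for their height in that litter.

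Other antiviral genes were also high in that litter, but by less. Of 40 measured, 20 had their highest value of all litters there and 34 lay above the median of the other flutamide litters, with a median excess of 0.33. Ifit3, a partner of IFIT1 and IFIT2, had 5.77 in flutamide replicate 1, 4.07 to 4.72 in the other flutamide litters and 4.19 to 4.57 in corn oil litters. Ifi44l, an interferon-induced gene, had 4.67, against 3.11 to 4.15 in the other flutamide litters and 3.14 to 3.72 in corn oil litters. Oasl2, of the oligoadenylate synthetase family, had 5.35, with 3.80 to 4.38 in the other flutamide litters and 3.93 to 4.47 in corn oil litters. All 3 lay above every other litter. Not every antiviral gene did so, since the smallest value on this list was a deficit of 0.18, and Ifit1, a cap-binding relative of Ifit2, differed by -0.06.

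Genes best known as targets of interferon gamma gave the largest single value. Of 12 measured, 9 had their highest value in flutamide replicate 1, and the median excess was 0.64. Cxcl10, a chemokine that attracts activated T cells, ranked first of all genes, with 8.13 in that litter, 4.97 to 5.77 in the other flutamide litters and 5.17 to 5.62 in corn oil litters. Cxcl11, which binds the same receptor, had 6.28, with 4.03 to 4.50 in the other flutamide litters and 3.88 to 4.40 in corn oil litters. Ifi47, an immunity-related GTPase, had 6.74, with 4.90 to 5.49 and 5.22 to 5.63 in the 2 sets. Cxcl9, the third chemokine for that receptor, was 0.31 above the other flutamide litters' median.

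Sensors of foreign nucleic acid followed in part. Of 12 measured, 6 had their highest value in that litter, with a median excess of 0.25. Aim2, a sensor of cytosolic DNA, had 5.26, with 3.88 to 4.66 in the other flutamide litters and 3.92 to 4.57 in corn oil litters. The RNA sensor listed as Rig1 in RefSeq, with the older symbol Ddx58, had 5.98, with 4.82 to 5.20 and 5.00 to 5.40. Ifih1, the sensor of long double-stranded RNA, had 6.96, with 5.90 to 6.30 and 6.13 to 6.41. All 3 were above every other litter.

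Interferons, their receptors and the signalling chain lay closer to the other litters. Among 5 interferon genes measured the median excess was 0.05. Ifng, interferon gamma, was the 1 of them with its highest value there, at 4.83, with 3.67 to 4.34 in the other flutamide litters and 4.12 to 4.73 in corn oil litters. Ifnb1, interferon beta, had 4.53, within the other flutamide litters (4.01 to 4.55) and the corn oil litters (4.04 to 4.73). Among 17 receptor and signalling genes the median excess was 0.06, and 3 had their highest value in that litter. Irf9, the DNA-binding subunit that joins STAT2, had the largest excess of this list, 0.50, and Jak2, a receptor kinase, had 0.25.

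Class I antigen presentation and NF-kB inflammation genes had small excesses, although both list means were the highest of all litters in flutamide replicate 1. The mean of the presentation genes was 6.45 there, with 6.36 to 6.40 in the other flutamide litters and 6.34 to 6.44 in corn oil litters. The mean of the NF-kB genes was 5.74, with 5.52 to 5.64 and 5.47 to 5.59. Of 10 presentation genes, 1 had its highest value in flutamide replicate 1, and the median excess was 0.05. This was B2m, the light chain of class I molecules, with 10.67, 10.21 to 10.46 in the other flutamide litters and 10.23 to 10.51 in corn oil litters. Of 12 NF-kB genes, 4 had their highest value there, with a median excess of 0.10. The largest was that of Ccl2, a chemokine for monocytes, at 0.51, while the cytokine gene Il1b had 0.38.

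**Figure D3:**
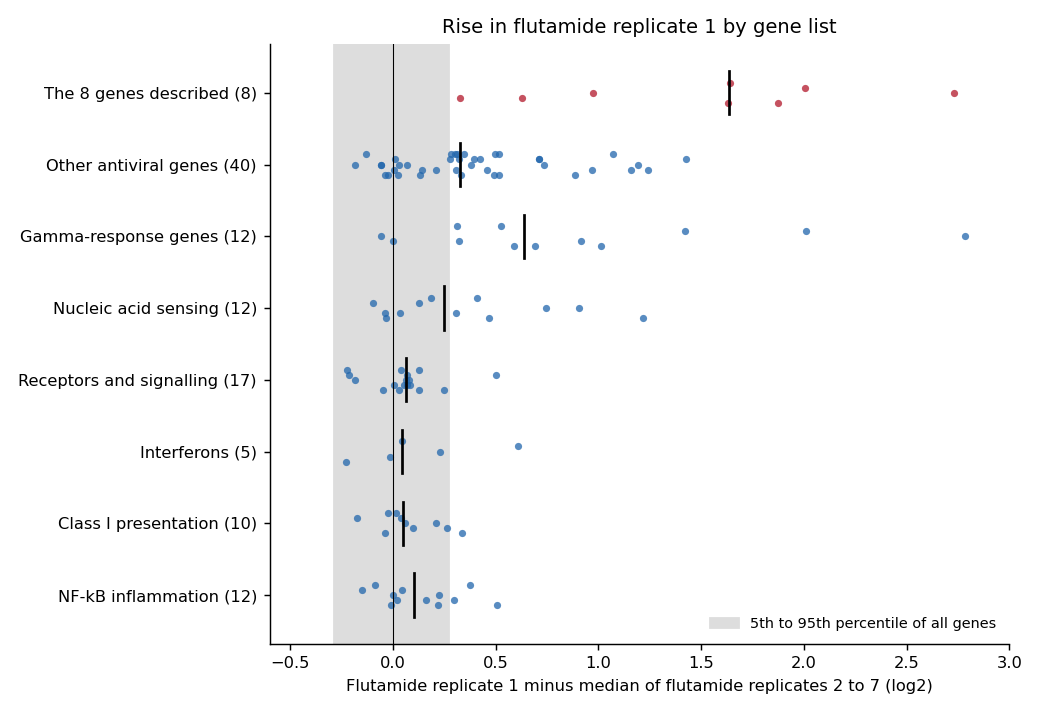
Excess of flutamide replicate 1 over the median of flutamide replicates 2 to 7 (horizontal axis, log2) for each gene of the 8 and of 7 lists, with the number of genes in brackets. Bars are list medians, from 1.64 for the 8 genes to 0.05 for the interferons, and the grey band runs from -0.29 to 0.27, the 5th and 95th percentiles of all genes.

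Beyond these lists, 10 of the 25 genes over 1 log2 unit were on no interferon list. S100a8 and S100a9, which encode the subunits of calprotectin made by neutrophils and by stressed keratinocytes, had 6.29 and 6.45 in flutamide replicate 1. S100a9 had 4.51 to 5.07 in the other flutamide litters and 4.47 to 4.89 in corn oil litters, and S100a8 had 4.26 to 5.10 and 4.85 to 5.84. Krt16, a keratin of stressed epidermis, had 9.17, but it varied widely, from 7.01 to 8.63 in the other flutamide litters and from 6.62 to 7.64 in corn oil litters. Il36a, an epithelial cytokine of the interleukin-1 family, had 7.06, with 5.03 to 5.90 and 4.93 to 5.41. The odorant-binding protein gene Obp1f had an excess of 2.18, the zinc finger gene Zfp951 of 1.28 and the vomeronasal receptor gene Vom1r34 of 1.52. Obp1f had 4.24, with 1.62 to 2.92 in the other flutamide litters and 2.25 to 2.96 in corn oil litters. Zfp951 had 4.61, with 2.31 to 3.66 and 2.92 to 3.86. Obp1f and Zfp951 had 2 probe sets each and Vom1r34 had 3, of which only the brightest was read. For Vom1r34 corn oil litters reached 6.36, above the 5.57 of flutamide replicate 1.

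Markers of leukocytes were examined beside these values. Neutrophil markers had a list mean of 5.68 in flutamide replicate 1, 5.09 to 5.22 in the other flutamide litters and 5.02 to 5.37 in corn oil litters. Of the 7 neutrophil markers 2, S100a8 and S100a9, had their highest value there, and the other 5, Mpo, Elane, Csf3r, Cxcr2 and Camp, had excesses between -0.14 and 0.19. Macrophage markers had a list mean inside the range of the other flutamide litters (5.81 to 6.02) and of the corn oil litters (5.84 to 6.23), with Adgre1, the macrophage F4/80 antigen, at an excess of 0.60 and Cd163 at -0.09. T and NK cell markers had a list mean of 4.94, with 4.75 to 4.88 and 4.75 to 4.89, and 2 of 11 had their highest value in flutamide replicate 1, among them Nkg7, a granule protein of cytotoxic cells, at an excess of 0.50. Dendritic cell markers had 5.31, with 5.19 to 5.37 and 5.19 to 5.27. No marker of B cells (2 measured), red blood cells (6), keratinocytes (6), fibroblasts (6), endothelium (5), skeletal muscle (5) or smooth muscle (5) had its highest value of all litters in flutamide replicate 1. The arrays give no true zero and no gene was called absent, and the part of these cells in the values of the 8 genes was not tested.

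**Figure D4:**
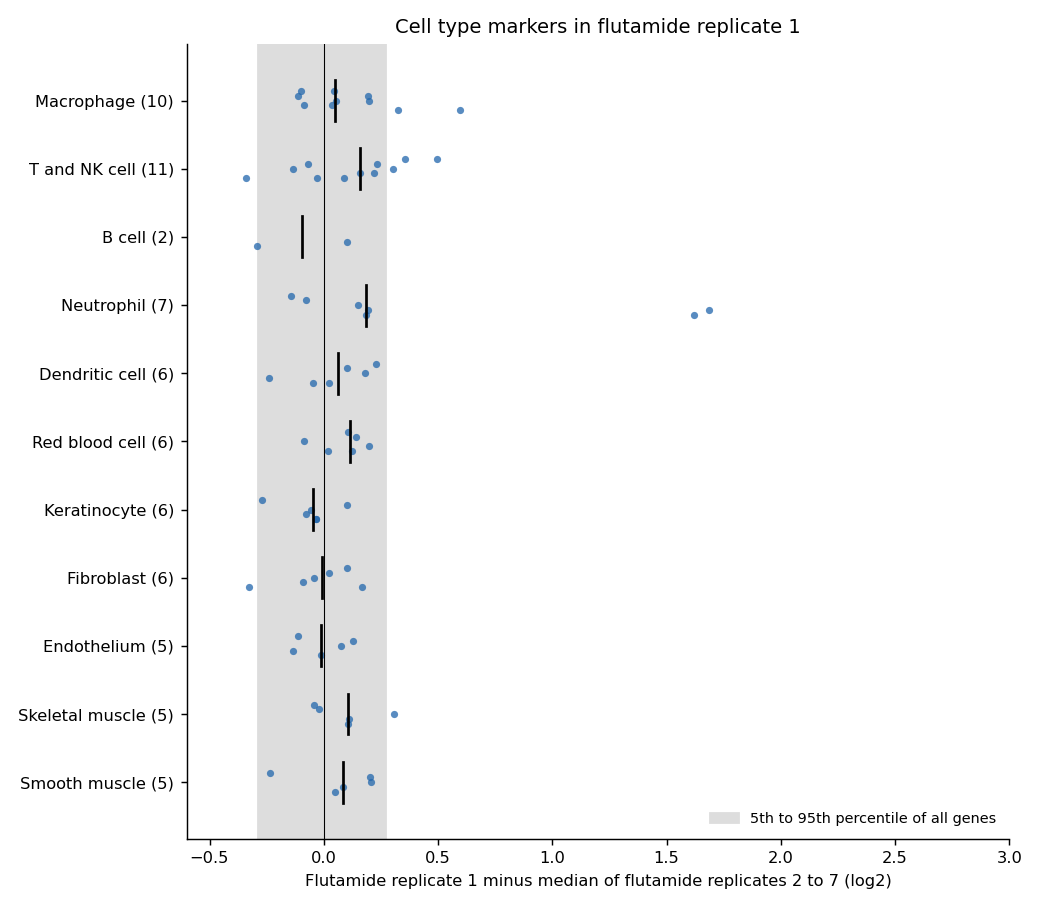
Excess of flutamide replicate 1 over the median of flutamide replicates 2 to 7 (horizontal axis, log2) for each marker gene of 11 cell types, with the number of genes in brackets. Bars are list medians and the grey band runs from -0.29 to 0.27, the 5th and 95th percentiles of all genes. The points near 1.6 and 1.7 in the neutrophil row are S100a8 (1.62) and S100a9 (1.68).

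The comparison of flutamide with corn oil asked whether prenatal antiandrogen exposure changed these genes on postnatal day 5. With all 7 flutamide litters the 8 genes had group differences from -0.03 for Mx1 and Ifit2 to 0.19 for Mx2, with a median of 0.04 against 0.005 over all genes. Of the 8, 3 were below 0, where 47.7% of all genes were. None of the 8 passed an adjusted p of 0.05 (limma, over all genes), where 0.0069% of all genes did. None had an unadjusted p under 0.05, where 9.16% of all genes did, 5.7% higher and 3.46% lower. The groups overlapped for all 8, and over all genes they did not overlap for 0.0966% with higher and 0.0276% with lower values in flutamide litters. Nothing is read from this contrast, since it holds the litter on which the genes were chosen. That litter also widened the estimates, by an amount that differed between genes. The SD of Usp18 was 1.13 over the 7 flutamide litters and 0.43 without flutamide replicate 1, against 0.26 in the 7 corn oil litters. For Irf7 the same SDs were 0.20 and 0.18, against 0.15.

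Without flutamide replicate 1, all 8 genes had lower means in flutamide litters, where 47.5% of all genes did, and none passed the test. This comparison is not independent of how the genes were ranked. The excess was taken over the median of the same 6 flutamide litters, so low values in them raise it. The count of 8 of 8 is therefore a description. The median difference was -0.14, against 0.006 over all genes. No gene of the array passed an adjusted p of 0.05 in limma's test with Benjamini-Hochberg adjustment in this comparison (0.0%). Mx1 and Ifit2, 2 of the 8, had an unadjusted p under 0.05, both lower in flutamide litters. Such a p was reached by 10.2% of all genes, 6.22% higher and 4.0% lower.

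Mx1 averaged 3.20 ± 0.27 (SD, n = 6) in flutamide litters and 3.52 ± 0.23 (SD, n = 7) in corn oil litters. The difference was -0.32 (SE 0.12), or 0.802-fold, and limma gave it an adjusted p of 0.348. All 6 flutamide litters lay below the corn oil median. Ifit2 averaged 5.64 ± 0.30 (SD, n = 6) in flutamide litters and 5.91 ± 0.17 (SD, n = 7) in corn oil litters, a difference of -0.27 (SE 0.11) with a limma adjusted p of 0.410. Here too all 6 flutamide litters were below the corn oil median, although the groups overlapped for both genes.

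The other 6 genes had smaller or less certain differences. Usp18 differed by -0.33 (SE 0.16; limma adjusted p = 0.504), with a 95% confidence interval from -0.66 to 0.007. Slfn4 differed by -0.17 (SE 0.10), Stat2 by -0.10 (SE 0.07), Isg15 by -0.05 (SE 0.09), Mx2 by -0.04 (SE 0.08) and Irf7 by -0.04 (SE 0.08). Their limma adjusted p ran from 0.597 for Slfn4 to 0.922 for Irf7. The intervals of Mx2, Isg15 and Irf7 ran from -0.22 to 0.13, from -0.23 to 0.13 and from -0.21 to 0.14. The groups overlapped for all 8 genes, where they did not for 0.255% of all genes with higher and 0.0759% with lower values in flutamide litters. A p that misses the threshold does not show that the groups are alike.

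Muscle markers were lower in flutamide litters both with and without flutamide replicate 1. With all 7 flutamide litters, 5 of 5 smooth muscle markers (median difference -0.14) and 4 of 5 skeletal muscle markers (-0.17) were lower, where 47.7% of all genes were. Without flutamide replicate 1, 47.5% of all genes were lower, and 4.0% were lower at an unadjusted p under 0.05 in limma's test. Of 5 smooth muscle markers 5 were then lower, with a median difference of -0.17 and 2 at an unadjusted p under 0.05. These were Actg2, an enteric smooth muscle actin, with -0.40 (limma adjusted p = 0.295) and Myh11, the smooth muscle myosin heavy chain, with -0.27 (limma adjusted p = 0.346). Of 5 skeletal muscle markers 4 were lower, with a median of -0.15 and 1 at such a p, the creatine kinase gene Ckm (-0.20, limma adjusted p = 0.367). All 5 endothelial markers were lower too, with a median of -0.09, and 8 of 10 macrophage markers, with a median of -0.08. Other marker lists did not share this. Lower were 3 of 11 T and NK cell markers (median 0.03), 1 of 6 of red blood cells (0.06) and 2 of 6 of dendritic cells (0.05). So were 3 of 7 neutrophil markers (0.05) and 0 of 2 B cell markers (0.10). Fibroblast markers were lower in 3 of 6 cases (0.006) and keratinocyte markers in 4 of 6 (-0.02). None of these markers passed, and their part in the lower values of the 8 genes was not tested.

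**Figure D5:**
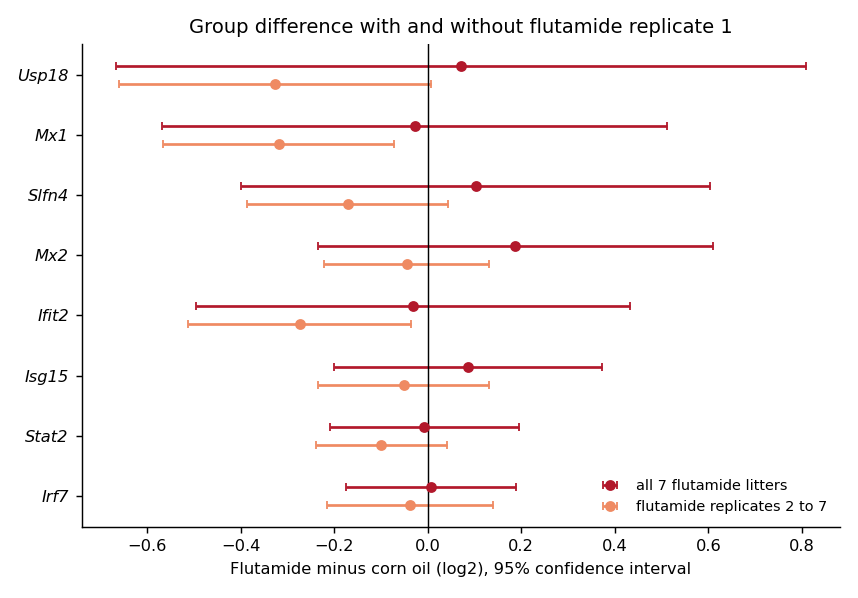
Flutamide minus corn oil difference (horizontal axis, log2) of the 8 genes with its 95% confidence interval, from 7 flutamide litters (dark red) and from flutamide replicates 2 to 7 (orange), each against 7 corn oil litters. The difference is lower without flutamide replicate 1 for all 8 genes, by most for Usp18, with 0.07 and -0.33. This follows from the choice of the genes, since that litter was the highest for all 8.

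A second flutamide litter weighed on some of these differences from the low side. Flutamide replicate 6 had the lowest value of all 14 litters for Mx1 (2.76), Slfn4 (3.47), Ifit2 (5.06) and Irf7 (4.67). It was not low for the rest of the 8. It had 3.48 for Usp18, 4.78 for Mx2 and 5.52 for Isg15. These lay above the medians of flutamide replicates 2 to 7, which were 3.14, 4.74 and 5.49. For Stat2 it had 6.04, with a median of 6.04. The share of all genes with their lowest value in this litter was not computed. With flutamide replicate 6 left out besides flutamide replicate 1, the median difference was -0.08, and Irf7 differed by 0.0175. Mean values of the 8 genes, each centred on its mean over the 13 litters other than flutamide replicate 1, ran from -0.26 in flutamide replicate 6 to 0.06 in flutamide replicate 5. In corn oil litters they ran from -0.05 in replicate 1 to 0.19 in replicate 4. Corn oil litters were above 0 in 6 of 7 cases and these flutamide litters in 1 of 6. This split restates the lower means of the 8 genes given above. Like them, it is not independent of how the genes were ranked, and it is a description.

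The further interferon lists showed no call either. Without flutamide replicate 1, none of the 40 other antiviral genes passed in limma's test in either direction, 26 were lower in flutamide litters, and the median difference was -0.04. At an unadjusted p under 0.05 in this test, 6 of the 40 were lower and 1 higher, where 4.0% of all genes were lower and 6.22% higher. Of all genes 47.5% had a difference below 0. Of 12 sensors 9 were lower, with a median of -0.10 and none at an unadjusted p under 0.05. Of 12 gamma-response genes 6 were lower, with a median of 0.03 and 1 at such a p. The 17 receptor and signalling genes had a median of -0.02, with 2 lower at such a p, among which Irf9 differed by -0.20 (limma adjusted p = 0.31). The 5 interferon genes had a median of -0.07, with 1 higher and 1 lower at such a p. These were Ifna4, an interferon alpha gene, with a difference of 0.27 (limma adjusted p = 0.244), and Ifng with one of -0.32 (limma adjusted p = 0.386). The 10 presentation genes had a median of -0.02 and none at such a p. The 12 NF-kB genes had a median of 0.10, with 2 higher at such a p.

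Outside flutamide replicate 1 the 8 genes varied together only loosely. Over the other 13 litters, the correlation across litters between pairs of the 8 genes ran from -0.28 to 0.80, with a median of 0.26 over 28 pairs. With each litter set against its group mean, the median was 0.11. The median correlation of the 8 with all other genes was -0.03. The genes whose pattern over these 13 litters was most like the mean of the 8 were Rhox10 (Pearson r = 0.85), Myoz1 (0.83), Zfp317 (0.82), Smc4, Mgat5 and Grp (0.81 each), Des (0.80) and Atp2b3 (0.79). None of these 8 was on an interferon list. Myoz1 and Des encode muscle proteins. Of the 5 skeletal muscle markers only the 3 with the largest excess were read, and Myh3 had 0.76, Acta1 0.75 and Ckm 0.59. The values of Tnnt3 and Ryr1 were not read. Among smooth muscle markers chosen in the same way, Actg2 had 0.51, Cnn1 0.49 and Myh11 0.46. Of the genes named above, Irf9 had 0.78, Ifng 0.76, Cxcl10 0.52, Ifit3 0.24, Cxcl11 -0.21 and Ifi44l -0.29. The points share the 2 groups and the arrays, and such values across 13 litters are a description only.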

How the data were processed

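The deposited values are on the log2 scale (28826 probe sets, 14 samples), and per the submitters' processing notes the authors made them with RMA, whose version was not given in the sources used here. RMA removes changes shared by most genes and shrinks differences of dim probe sets, to which 5 of the 8 genes belong (mean under the 25th percentile of all genes). Per the labels' protocols, 50 ng of RNA per sample went into the NuGEN amplification.

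The 15209 probe sets with 1 symbol were named from GEO's platform annotation, updated by gene number through RefSeq (14471 of 14497 genes matched), and the brightest was kept per gene. A list gene absent under its symbol was sought by its RefSeq synonym. limma 3.58.1 (R 4.3.3) compared the groups, without covariates since the labels give no batch, over all 14 samples and without flutamide replicate 1. Its p-values were adjusted by Benjamini-Hochberg over all genes. The p-values set a group difference against the spread between arrays of the same group. With 1 array per litter, that spread holds differences between litters, pools and arrays together. The number of arrays limits the precision. Excess is the value of flutamide replicate 1 minus the median of the other 6 flutamide litters.

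The 8 genes, the lists and the tests were chosen with earlier results of these data known. Genes to name were the 8, the 3 with the largest excess per list, over all genes the 12 with the largest excess and the 5 with the largest deficit, and the 8 most like the mean of the 8. Ifit1, Cxcl9, Cd163, Ifna4 and the low neutrophil markers were added after their values were seen. Alternatives changed the probe set summary, the features tested, the scaling, the filter on dim genes, the prior variance and the array weights, or left out single litters.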

Additional observations from a re-analysis of the deposited data

Results flagged for a closer look

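In 34 of 196 groups of 7 litters examined (the genes named and the list means, in each treatment group), 1 litter was set apart by a gap to its neighbour that exceeded Dixon's 95% critical value of 0.568, given as a share of the group's range. Chance gives about 1 in 20 groups such a gap, but the 34 cannot be set against that rate. The 8 genes and many of the others were named for their height in flutamide replicate 1, so a gap of that litter restates how they were chosen, and genes of one list are not independent. The values are given as a description. In 26 of the 34 the litter was flutamide replicate 1, at the high end. Among the 8 genes these were Mx1 (0.683), Mx2 (0.642), Usp18 (0.674), Ifit2 (0.622), Slfn4 (0.621), Isg15 (0.667) and Stat2 (0.629), and Irf7 was not set apart. Among interferon-responsive genes they were Cxcl10 (0.747), Cxcl11 (0.788), Ifit3 (0.620), Ifi47 (0.682), Oasl2 (0.627), Rig1 (0.667) and Ifih1 (0.623). Among other genes they were S100a9 (0.712), S100a8 (0.584), Il36a (0.573), Adgre1 (0.714), Nkg7 (0.601) and Xcr1 (0.661).

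The same litter was set apart for the mean of the 8 genes (0.805), which their choice fixed, and for the means of other antiviral genes (0.924), of nucleic acid sensing (0.841), of gamma-response genes (0.888), of class I presentation (0.599) and of neutrophil markers (0.774). Other litters were set apart in 8 groups. Corn oil replicate 1 was high for S100a8 (0.656), Cd68 (0.662) and the means of macrophage (0.658), red blood cell (0.610) and endothelial markers (0.634), and low for Grp (0.743). Corn oil replicate 5 was high for Hba-a3 (0.577) and flutamide replicate 3 was low for Pecam1 (0.617).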

How the results depend on the processing

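None of the 8 genes passed the test under any alternative, with or without flutamide replicate 1. Over all genes 1 passed with all samples, against 0 with each sample centred on its median, 0 with the replicate number as a block, 2 with a trended and robust prior, and 0 to 1 with single litters left out. Without flutamide replicate 1 none passed, against 2 over all probe sets, 1 with genes under the 25th percentile of mean value left out, 1 with a trended and robust prior, and 0 to 1 with a further litter left out (1 without flutamide replicate 4 or 5). The median difference of the 8 genes was 0.04 with all samples (0.04 with the replicate block), and -0.14 to 0.10 with single litters left out. Over the 3 of them kept by the filter on dim genes, the median with all samples was -0.007. Without flutamide replicate 1 the median of the 8 was -0.14 (-0.12 with the replicate block), and -0.16 to -0.08 with a further litter left out. Same-numbered litters of the 2 groups deviated together in 1 of 7 pairs (correlations -0.07 to 0.15), so the numbers were not taken to pair them. The filter on dim genes kept 3 of the 8. With a further litter left out the sign turned for 3 genes without a call, Mx2 (-0.12 to 0.016, turned without flutamide replicate 3), Irf7 (-0.081 to 0.0175, without flutamide replicate 6) and Isg15 (-0.099 to 0.0046, without corn oil replicate 2), and the cause was not tested. The median excess in flutamide replicate 1 ran from 1.61 to 1.67 when 1 of the other flutamide litters was left out.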

Other observations

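The largest deficits in flutamide replicate 1, relative to the median of the other flutamide litters, were those of Olr920 (-1.41), Ska2 (-1.29), Olr990 (-0.99), Dnmt3b (-0.94) and Or12d13 (-0.94). Ska2 acts at the kinetochore, Dnmt3b is a DNA methyltransferase and the other 3 are olfactory receptor genes. Olr920 had 1.17 in that litter, 2.28 to 3.33 in the other flutamide litters and 1.64 to 2.28 in corn oil litters, and Ska2 had 4.44, with 5.17 to 6.20 and 5.44 to 6.86.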
